A study of Ovis aries with 6 samples.

Results

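The miRNAs described here are the miR-200 family (miR-200a, miR-200b, miR-200c, miR-141 and miR-429), the miR-183 cluster (miR-183, miR-96 and miR-182) and miR-205, which were chosen by name as miRNAs of epithelium. Each of these 9 miRNAs was taken under its plain name or with an arm (5p or 3p), after the species prefix of the table was removed. This gave 21 of the 10430 names in all, and where several rows of the table carried 1 name, the most counted of them was used. The small RNA came from longissimus muscle of sheep kept under natural conditions, with 3 libraries of the breed Qianhua Mutton Merino (QHMM), set against 3 libraries of the breed Small Tail Han (STH). No treatment, age or sex is stated. Whether the libraries are from separate animals is not stated either, so that the p-values cover a spread among libraries which may be technical.

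The miR-200 family is made in epithelial cells, where it holds down the transcription factors ZEB1 and ZEB2, repressors of E-cadherin, and so helps to keep cells in the epithelial state. miR-205 acts on the same factors and is known from skin, mammary gland and other stratified or glandular epithelia. The miR-183 cluster is made from a shared transcript, is known from sensory cells of eye and ear and is also found in epithelia and in activated lymphocytes. Muscle fibres are not known as a main source of any of them. In bulk samples, fewer cells of a type and less RNA per cell cannot be told apart.

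The mature sequences as the table lists them show which names are close enough to share reads and which share a seed, the stretch that pairs with targets. They are given 5′ to 3′ with the seed, bases 2 to 8, in capitals. In the sheep row of miR-200a, which starts at the second base of the rat sequence and holds 19 nt, the same 7 bases stand at 1 to 7.
miR-200b: tAATACTGcctggtaatgatg
miR-200c: tAATACTGccgggtaatgatgg
miR-429: tAATACTGtctggtaatgccg
miR-200a: AACACTGtctggtaacgat
miR-200a-3p: tAACACTGtctggtaacgatgt
miR-141-3p: tAACACTGtctggtaaagatggc
miR-205: tCCTTCATtccaccggagtc
miR-182: tTTGGCAAtggtagaactcacaccg
miR-182-5p: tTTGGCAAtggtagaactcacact
miR-96-5p: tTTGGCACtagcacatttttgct
miR-183-5p: tATGGCACtggtagaattcact

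The miR-200 family thus falls into 2 seed groups, AATACTG in miR-200b, miR-200c and miR-429 and AACACTG in miR-200a and miR-141. Within the first group, miR-200b and miR-200c differed at 1 of 21 compared bases, T11G, and miR-200b and miR-429 at 3 (C9T, A19C and T20C), with positions counted from 1 at the 5′ end of miR-200b. The rat row miR-200a-3p and miR-141-3p differed at 2 of 22 bases, C17A and T22G, counted in the same way on miR-200a-3p. The sheep row of miR-200a, with 300 counts against 1 of miR-200a-3p, is identical to that row over its 19 bases. Of the differences from miR-141-3p, C17A lies within the sheep row and T22G beyond its end. As it is not stated how a read with several matches was counted, these rows may not be independent measurements. The gene clusters cross these seed groups. MIR200A and MIR200B are annotated next to each other on chromosome 12 of the RefSeq assembly ARS-UI_Ramb_v3.0, and MIR200C on chromosome 3, next to PTPN6. The names of the predicted loci in the table place miR-429 and miR-205 on chromosome 12 and miR-141 on chromosome 3.

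Outside the 9 miRNAs, no row of the table carried the seed of miR-200b, miR-182 or miR-205 at bases 2 to 8. The seed of miR-200a-3p and miR-141-3p stood in 4 other rows with 13 counts together, all of them predicted loci with no known name. The seed of miR-96-5p, TTGGCAC, stood in 4 other rows with 116 counts, against 45 counts of miR-96-5p itself. Of the 116 counts, 86 belonged to the predicted sheep locus of miR-1271-5p. This locus was counted 23, 5 and 25 times in QHMM replicates 1, 2 and 3, against 14, 6 and 13 times in STH. STH replicate 1 was the sole library in which miR-96-5p had more counts than this locus.

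All of the names were rare. Together they had 755 counts, where the total over all names lay between 5572865 and 7546762 counts per library in QHMM and between 6172849 and 7930202 in STH. CPM are counts per 1000000 of this total. The 21 names summed to 262, 29 and 101 counts in the QHMM libraries, against 247, 37 and 79 counts in the STH libraries, each in the order of replicates 1, 2 and 3, as everywhere below. This corresponds to 34.7, 5.20 and 13.6 CPM for QHMM, against 33.7, 5.99 and 9.96 CPM for STH. Replicate 1 of each breed was the highest library and replicate 2 the lowest, and the ranges of the breeds nearly coincided. The sum averaged 17.8 ± 15.2 CPM over the QHMM libraries and 16.6 ± 15.004 CPM over the STH libraries (SD, n = 3 each). The ratio of these means, QHMM over STH, was 1.08, a difference far smaller than the spread between libraries of a breed. It was 0.567 without QHMM replicate 1, 2.23 without STH replicate 1 and 1.18 without both, and it also fell below 1 without STH replicate 2 (0.816) or STH replicate 3 (0.898).

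**Figure D1:**
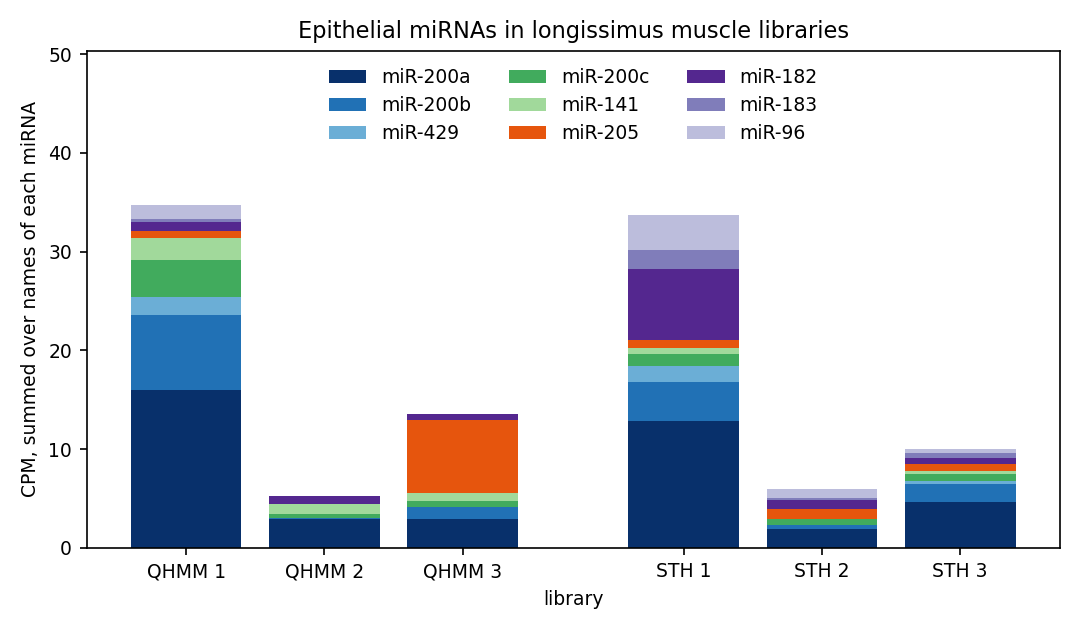
Summed CPM of the 9 miRNAs in each library, with the names of 1 miRNA stacked as 1 colour. QHMM replicate 1 (34.7 CPM) and STH replicate 1 (33.7 CPM) stand above the other libraries, miR-205 takes 54.5% of the counts of QHMM replicate 3, and the miR-183 cluster (purple shades) is largest in STH replicate 1.

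The 3 groups of miRNAs did not follow the same libraries. The miR-200 family took 90.5% of the 262 counts in QHMM replicate 1 (95% Wilson interval 86.3% to 93.5%), 86.2% of 29 in QHMM replicate 2 and 40.6% of 101 in QHMM replicate 3. In the STH libraries it took 59.9%, 48.6% and 78.5%. The miR-183 cluster took 7.63%, 13.8% and 4.95% of the QHMM counts, against 37.7%, 35.1% and 15.2% of the STH counts, so that each QHMM share lay below each STH share. This order rests on few counts, 4 of 29 in QHMM replicate 2 and 12 of 79 in STH replicate 3, whose Wilson intervals overlap (5.50% to 30.6% and 8.91% to 24.7%). miR-205 took 54.5% of the counts in QHMM replicate 3 (interval 44.8% to 63.8%) and between 0% and 16.2% in the other libraries. Wilson, Poisson and ratio intervals cover counting error only, whereas the interval of a log2 fold change from edgeR includes the spread between libraries.

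Nearly all counts lay on 1 arm of each hairpin. Names were taken as the same arm where they shared a run of at least 15 nt with the most counted name of their miRNA. By this measure 734 counts lay on the main arm, 3p in the miR-200 family and 5p in the others, and 21 counts (2.78%) on the other arm. The other arm took its largest share in miR-182, 9 of 80 counts (11.3%, Wilson upper bound 20.0%). In miR-200a it was 1 of 302 counts, and for miR-200c no other arm was analysed here.

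Of the 21 names, 11 had at least 10 counts over the 6 libraries, 10 had 1 to 9 counts with 23 together, and 3 were counted in each library (miR-200a, miR-200c and miR-182-5p). A count of 0 allowed up to 3 counts as a one-sided limit, between 0.398 and 0.538 CPM in QHMM and between 0.378 and 0.486 CPM in STH. The two-sided Poisson interval drawn in the plot of CPM by name reaches 3.69 counts for a count of 0, which is between 0.489 and 0.662 CPM in QHMM and between 0.465 and 0.598 CPM in STH. Of the 10 rarest names, miR-182-3p had 9 counts and miR-205-3p had 3, and both are described with their miRNAs. miR-141-5p had 1 count each in QHMM replicates 2 and 3, miR-200b-5p 1 each in STH replicates 2 and 3, and miR-183-3p 1 each in STH replicates 1 and 3. The other five had a single count, miR-200a-3p in QHMM replicate 2, miR-205-5p in STH replicate 2, and miR-200a-5p, miR-429-5p and miR-96-3p in STH replicate 3.

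miR-200a was the most counted of these miRNAs in each library except QHMM replicate 3, and took place 641 among the 10430 names by mean CPM. It was counted 121, 15 and 22 times in QHMM, against 94, 12 and 36 times in STH. As CPM this was 16.0 (exact Poisson 95% interval 13.3 to 19.2), 2.69 and 2.96 for QHMM, against 12.8 (10.4 to 15.7), 1.94 and 4.54 for STH. In each breed the interval of replicate 1 lay above those of the other libraries, so the spread was larger than counting error. The level averaged 7.23 ± 7.63 CPM over the QHMM libraries and 6.44 ± 5.69 CPM over the STH libraries (SD, n = 3 each).

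miR-200a was also the sole name of the 21 that passed edgeR's filter on low counts. In the quasi-likelihood test across 1274 names its log2 fold change, QHMM over STH, was 0.12 (standard error 0.81, 95% interval -1.76 to 1.99, adjusted p = 0.963 from edgeR). Of this 1 tested name, 0 passed an adjusted p of 0.05, with 0 at an unadjusted p under 0.05 and 0 with DESeq2, where 2.2% of all tested names passed with edgeR. The interval holds changes of more than 2-fold in both directions, and a breed difference within it was not detectable with these libraries. The direction turned without QHMM replicate 1 (-1.14), without STH replicate 2 (-0.29), without STH replicate 3 (-0.071) and without both replicate 1 libraries (-0.22), and the value was 1.06 without STH replicate 1.

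The other chromosome 12 names of the family were highest in the same libraries. miR-200b was counted 36, 0 and 4 times in QHMM, against 17, 1 and 9 times in STH. miR-200b-3p, the rat form of the same sequence with 2 more bases at its 3′ end, was counted 21, 1 and 5 times in QHMM, against 12, 0 and 4 times in STH. Since these rows are identical over 21 bases and it is not stated how a read with several matches was counted, they are not independent measurements. miR-429 was counted 14, 0 and 0 times in QHMM, against 12, 0 and 2 times in STH, so that 26 of its 28 counts lay in the replicate 1 libraries.

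The names on chromosome 3 had fewer counts. miR-200c was counted 28, 2 and 4 times in QHMM, against 9, 4 and 5 times in STH, and averaged 1.54 ± 1.89 CPM over the QHMM libraries and 0.836 ± 0.341 CPM over the STH libraries (SD, n = 3 each). miR-141-3p was counted 17, 5 and 5 times in QHMM, against 4, 0 and 3 times in STH. As CPM this was 2.25, 0.897 and 0.672 for QHMM, against 0.546, 0 and 0.378 for STH, and each QHMM library lay above each STH library. This order rests on few counts, 5 in QHMM replicate 3 and 4 in STH replicate 1, whose Poisson intervals overlap (0.218 to 1.57 and 0.149 to 1.40 CPM). miR-141-3p was the sole name without overlap among the 11 names with at least 10 counts (9.09%), where 15.6% of all 2768 names with such counts did not overlap between the breeds. The exact permutation test, two-sided, gave p = 0.10 for miR-141-3p, the smallest value that 3 against 3 libraries allow. For the other 10 names the same exact test gave p between 0.20 and 1.0.

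The ratio of summed shares, QHMM over STH, was 4.02 for miR-141-3p with a 95% counting interval of 1.71 to 10.9. It stayed above 1 with each library left out (2.35 to 6.17), and the interval without QHMM replicate 1 held 1 (0.808 to 7.28). Without both replicate 1 libraries the ratio was 3.61, with an interval of 0.930 to 20.4. For miR-200c the ratio was 1.97 (1.08 to 3.70), but 0.549 without QHMM replicate 1. It was 1.16 for miR-200a (0.918 to 1.46), 1.54 for miR-200b (0.924 to 2.62), 1.76 for miR-200b-3p (0.914 to 3.49) and 1.04 for miR-429 (0.460 to 2.36), and each of these 4 intervals held 1. For these 4 names the difference of the breed means was also smaller than the SD within either breed. Without QHMM replicate 1 all 4 ratios lay below 1 (0.429, 0.244, 0.617 and, with no count left in QHMM, 0).

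By gene cluster, the names on chromosome 12 (miR-200a, miR-200b and miR-429) summed to 192, 17 and 31 counts in QHMM, against 135, 14 and 54 counts in STH. Those on chromosome 3 (miR-200c and miR-141) summed to 45, 8 and 10 counts in QHMM, against 13, 4 and 8 counts in STH. The ratio of mean CPM was 1.19 for chromosome 12 and 2.55 for chromosome 3. Without QHMM replicate 1 it was 0.393 and 1.21, and whether the clusters differ in their breed ratio was not tested.

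**Figure D2:**
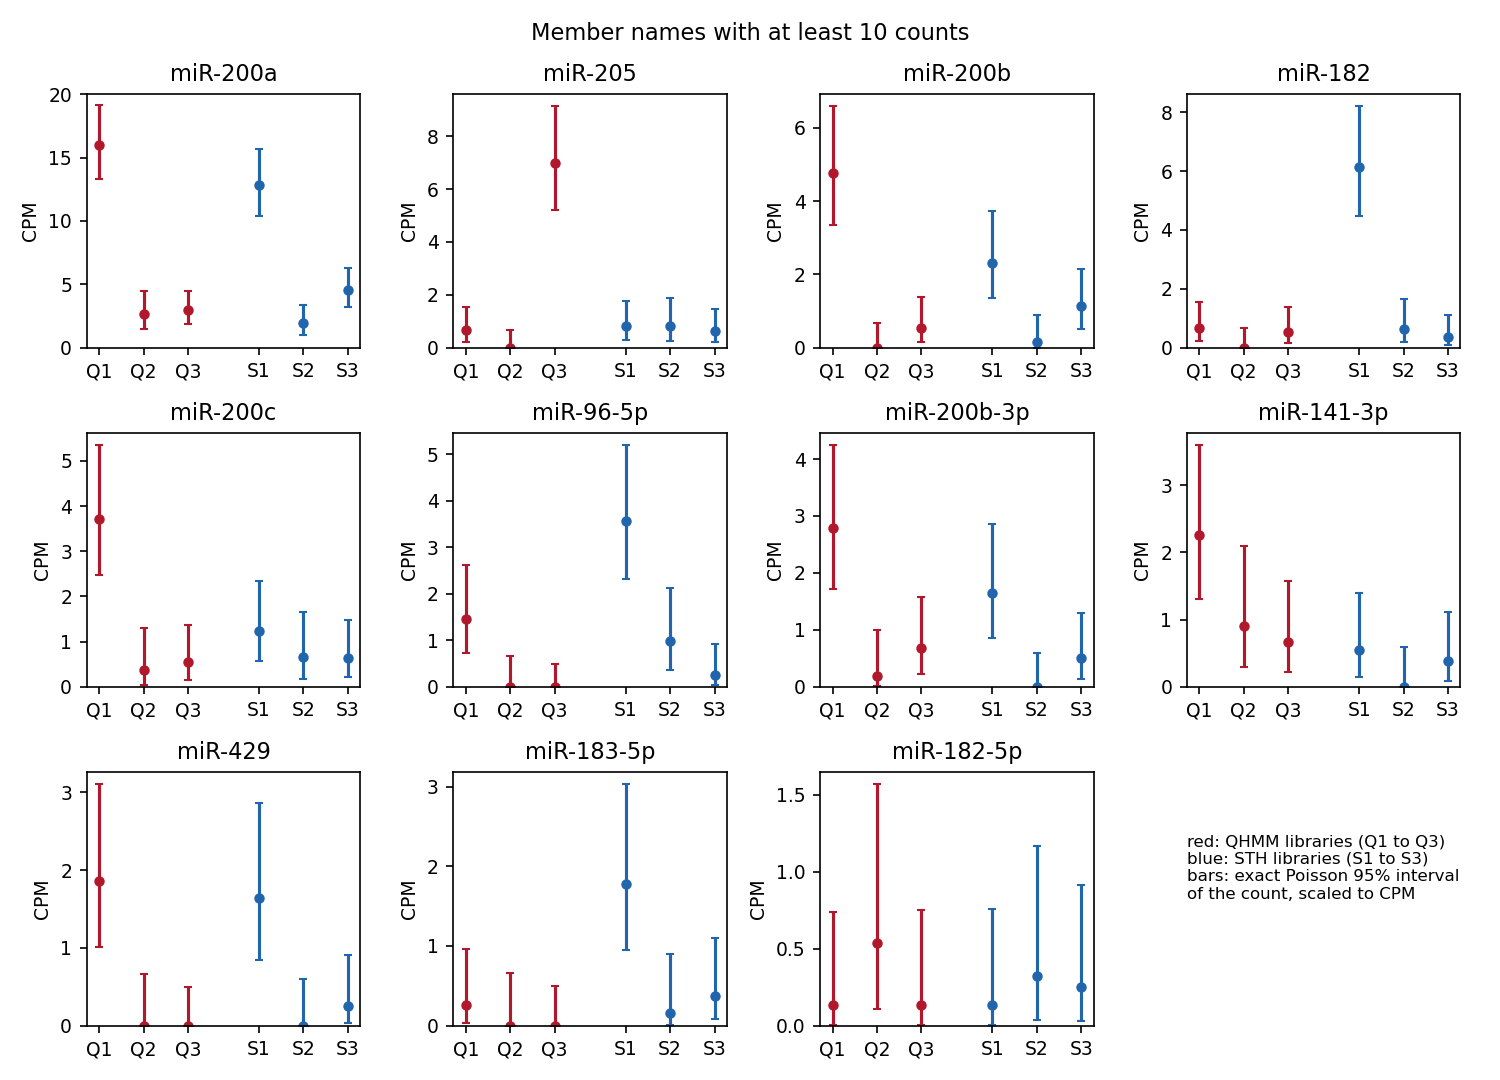
CPM of the 11 names with at least 10 counts in QHMM replicates 1 to 3 (red, Q1 to Q3) and STH replicates 1 to 3 (blue, S1 to S3), with exact Poisson 95% intervals. Names of the miR-200 family are highest in the replicate 1 library of each breed, miR-205 in QHMM replicate 3 (6.99 CPM) and miR-182 in STH replicate 1 (6.15 CPM).

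The miR-200 family summed to 31.4, 4.49 and 5.51 CPM for QHMM, against 20.2, 2.92 and 7.82 CPM for STH. All names of miR-200a together took 51.1%, 64.0% and 53.7% of the family's QHMM counts, against 63.5%, 66.7% and 59.7% of its STH counts. The Wilson intervals of all these shares overlapped, including 44.7% to 57.4% in QHMM replicate 1 and 55.5% to 70.8% in STH replicate 1, the libraries with most counts. The names on chromosome 3 took 45 of 237, 8 of 25 and 10 of 41 family counts in QHMM, against 13 of 148, 4 of 18 and 8 of 62 in STH. Overlap of such intervals does not show that shares are equal, and whether the makeup of the family differed between libraries was not tested. Without miR-200a the family summed to 15.4, 1.61 and 2.55 CPM for QHMM, against 7.38, 0.972 and 3.15 CPM for STH, and replicate 1 remained the highest library of each breed.

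The miR-183 cluster was counted mostly in 1 STH library. miR-182, its most counted member, was counted 5, 0 and 4 times in QHMM, against 45, 4 and 3 times in STH. miR-96-5p was counted 11, 0 and 0 times in QHMM, against 26, 6 and 2 times in STH. miR-183-5p was counted 2, 0 and 0 times in QHMM, against 13, 1 and 3 times in STH. STH replicate 1 was the highest library for each of the 3 names and QHMM replicate 1 the highest of its breed, and the breeds overlapped for each.

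As a sum the cluster had 2.65, 0.718 and 0.672 CPM for QHMM, against 12.7, 2.11 and 1.51 CPM for STH. The ratio of the breed means, QHMM over STH, was 0.248, and 0.744 without STH replicate 1. Without both replicate 1 libraries, each the highest of its breed, it was 0.384. The ratio of summed shares was then 0.390, with a counting interval of 0.160 to 0.864. It rested on 4 and 5 counts in QHMM, against 13 and 12 in STH. By name and over all 6 libraries, the ratio of summed shares was 0.180 for miR-182 (counting interval 0.0781 to 0.369), 0.337 for miR-96-5p (0.154 to 0.681) and 0.123 for miR-183-5p (0.0137 to 0.516). Without STH replicate 1 the ratio was 0.882 for miR-182 (0.292 to 2.79), 0.943 for miR-96-5p (0.346 to 2.70) and 0.343 for miR-183-5p (0.0310 to 2.39). All 3 ratios stayed below 1 with each library left out, but each interval without STH replicate 1 held 1. Without both replicate 1 libraries the ratio was 0.619 for miR-182 (0.133 to 2.44). It was then 0 for miR-96-5p (0 to 0.635) and 0 for miR-183-5p (0 to 1.64), as QHMM had no count left of either.

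None of these names passed the filter on low counts. With no filter, edgeR tested 9972 names, of which 0.642% passed, and the median log2 fold change over all names was -0.34, against 0.031 with the filter. In this fit miR-182 was at -2.41 on the log2 scale (standard error 0.65, adjusted p = 0.0380 from edgeR), the sole name of the 21 past the threshold. The exact permutation test, two-sided, gave p = 0.50 for miR-182, whose STH SD (3.26 CPM) was above its STH mean (2.39 CPM). The standard error of miR-200a was 0.43 in this fit, against 0.81 with the filter. Without STH replicate 1 the fold change of miR-182 itself was nearly gone (-0.19, adjusted p = 0.925 from edgeR). Without QHMM replicate 1, 2 or 3 it was -2.82, -1.98 and -2.56, of similar size, but did not pass (adjusted p = 0.0838, 0.340 and 0.222 from edgeR). miR-182 passed without STH replicate 2 or 3 (adjusted p = 0.0118 and 0.0096 from edgeR).

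The other low names did not pass in the fit without a filter. There miR-183-5p was at -2.77 and miR-96-5p at -1.58 (adjusted p = 0.524 and 0.688 from edgeR), and miR-205 was at 1.84 and miR-141-3p at 2.00 (adjusted p = 0.348 and 0.515 from edgeR). miR-96-5p passed without QHMM replicate 1, which left QHMM with no count of it (adjusted p = 0.00635 from edgeR).

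A second row of miR-182 had 10 counts in all. The human row miR-182-5p differed from the rat row miR-182 at 1 of 24 bases near the 3′ end (C24T, counted from the 5′ end of the rat row). It was counted 1, 3 and 1 times in QHMM, against 1, 2 and 2 times in STH, and thus once in STH replicate 1, where the rat row had 45 counts. The rows are otherwise identical over these bases, and it is not stated how a read with several matches was counted. They are therefore not independent measurements. The other arm, miR-182-3p, was counted 1, 1 and 0 times in QHMM, against 7, 0 and 0 times in STH, with its highest count in STH replicate 1 as for miR-182.

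miR-205 was counted mostly in 1 QHMM library. It was counted 5, 0 and 52 times in QHMM, against 6, 5 and 5 times in STH. As CPM this was 0.663, 0 and 6.99 (Poisson interval 5.22 to 9.16 in replicate 3) for QHMM, against 0.820, 0.810 and 0.631 for STH. The STH libraries differed by less than counting error, while QHMM replicate 3 lay apart from all others. The 3 counts of the other arm, miR-205-3p, were in QHMM replicate 3 as well. The ratio of summed shares of miR-205 was 3.71 (counting interval 2.10 to 6.92), and 0.510 (0.146 to 1.46) without QHMM replicate 3.

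**Figure D3:**
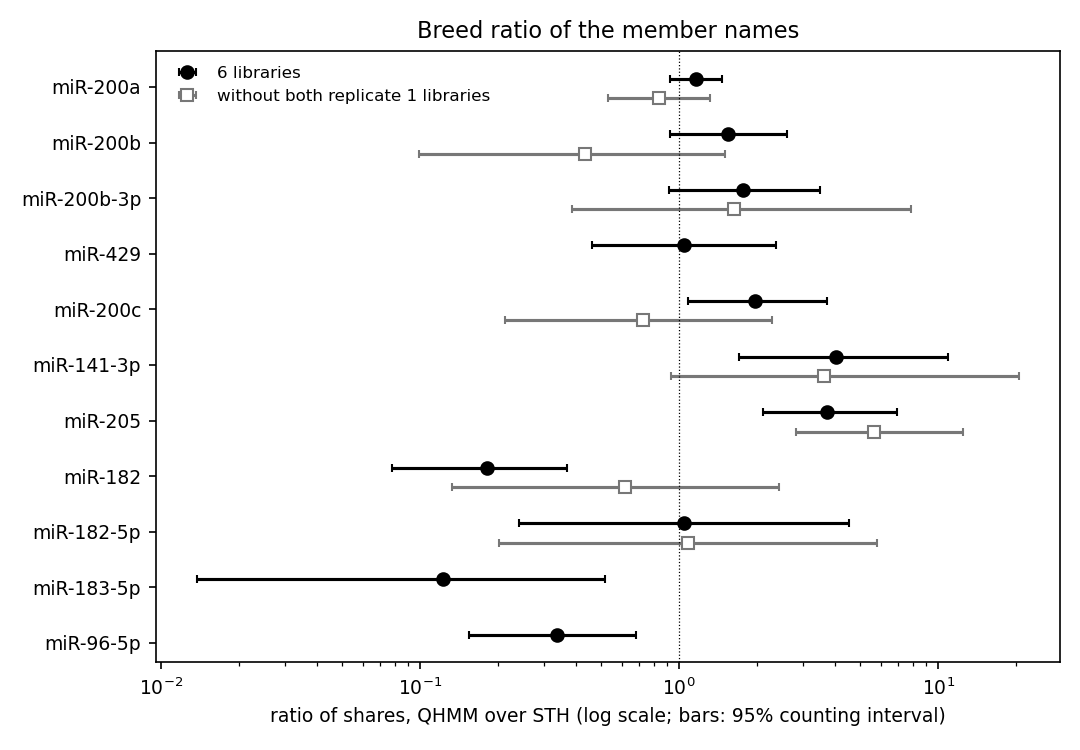
Ratio of summed shares, QHMM over STH, for the 11 names with at least 10 counts (log scale), with 95% counting intervals, over 6 libraries (black) and without both replicate 1 libraries (open squares). In black, the intervals of miR-141-3p, miR-205 and miR-200c lie above 1 and those of miR-182, miR-183-5p and miR-96-5p below 1, while miR-429, miR-183-5p and miR-96-5p have no open square because QHMM then had a count of 0.

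By mean CPM over the 6 libraries the order was miR-200a (6.83 ± 6.03, SD, n = 6), miR-205 (1.65 ± 2.63), miR-200b (1.49 ± 1.81), miR-182 (1.40 ± 2.34) and miR-200c (1.19 ± 1.27). Then came miR-96-5p (1.04 ± 1.36), miR-200b-3p (0.963 ± 1.06), miR-141-3p (0.791 ± 0.777), miR-429 (0.624 ± 0.878), miR-183-5p (0.430 ± 0.676) and miR-182-5p (0.253 ± 0.160). No neighbours in this order differed by more than the SD of the higher one. Single libraries set much of it. Without QHMM replicate 3 miR-205 averaged 0.585 CPM and fell to place 9 of the 11 names. Without STH replicate 1 the mean was 0.445 CPM for miR-182, 0.536 CPM for miR-96-5p and 0.161 CPM for miR-183-5p. Without QHMM replicate 1 it was 0.831 CPM for miR-200b, 0.681 for miR-200c, 0.599 for miR-200b-3p, 0.499 for miR-141-3p and 0.378 for miR-429. miR-200a stayed in place 1 with each library left out.

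The replicate 1 libraries were the highest of their breed for most of these names. Of the 11 names with at least 10 counts, 9 were highest in QHMM replicate 1 within their breed and 10 in STH replicate 1, among them all 6 names of the miR-200 family in both. Among all 2768 names with such counts, 38.8% were highest in QHMM replicate 1, 33.7% in STH replicate 1 and 15.1% in both. Some of the 11 names were highest by little more than a tie. miR-205 had 6, 5 and 5 counts in STH, and miR-182 had 5, 0 and 4 counts in QHMM. The rows miR-200b and miR-200b-3p, which are not independent measurements, both enter these numbers. The labels name no batch, and whether the libraries with number 1 share a preparation was not tested.

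Markers of other cell types were set beside these values. The list of other epithelial miRNAs had counts for 8 of 10 entries, with miR-203 and miR-31 present as miR-203a, miR-203b and miR-31a. Its summed level ran between 179 and 389 CPM in QHMM and between 229 and 248 CPM in STH. Its most abundant name, miR-192-5p of gut, liver and kidney, had 181, 157 and 84.8 CPM for QHMM, against 109, 133 and 119 CPM for STH. Of its 7 tested names 0 passed with edgeR, 0 at an unadjusted p under 0.05 and 0 with DESeq2, and their median log2 fold change was 0.45, against 0.031 over all names. Of all 1274 tested names, 28 passed with edgeR, 174 were at an unadjusted p under 0.05 and 49 passed with DESeq2.

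The names of this list, picked here after their values were seen, did not share 1 order of libraries. miR-215-5p, related to miR-192 and known from intestine and kidney, was counted 277, 20 and 13 times in QHMM, against 25, 17 and 16 times in STH. miR-31a-5p, known from keratinocytes among other cells, was counted 472, 107 and 134 times in QHMM, against 259, 89 and 167 times in STH. Both were highest in the replicate 1 library of each breed, as the miR-200 family was. miR-203a-3p, a miRNA of differentiating keratinocytes, was counted 1, 3 and 29 times in QHMM, against 7, 5 and 1 times in STH, with QHMM replicate 3 highest as for miR-205. The more abundant miR-203b-3p did not show this, with 12.2, 8.43 and 7.39 CPM for QHMM, against 6.69, 12.2 and 18.8 CPM for STH. Nor did the most abundant names, miR-192-5p and miR-194, follow the replicate 1 libraries in both breeds. miR-194 of gut, liver and kidney had 82.6, 104 and 56.4 CPM for QHMM, against 67.7, 75.0 and 79.8 CPM for STH, and STH replicate 1 was the lowest of its breed for miR-194, miR-192-5p and miR-203b-3p. miR-375-3p of endocrine and gut epithelium was counted 15, 0 and 0 times in QHMM, against 1, 4 and 12 times in STH. The part of epithelial cells in the values of the miR-200 family and miR-205 was not tested.

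QHMM replicate 3, the library with most miR-205, also stood apart in the sums of the pancreas and red blood cell lists, though not for each of their names. The pancreas list (miR-216a, miR-216b and miR-217, all 3 with counts) summed to 0.795, 1.08 and 7.79 CPM for QHMM, against 1.64, 1.46 and 2.02 CPM for STH. Its main name, miR-216b-5p, had 28 counts in QHMM replicate 3 and 0 to 4 in the other libraries. That library was also highest for miR-216a-5p (13 counts) and miR-217 (9 counts). It was not highest for miR-216b-3p (3 counts, against 6 in STH replicate 3) or miR-216a-3p (3 counts, against 6 in STH replicate 2). The red blood cell list, with counts for all 4 entries and miR-451-5p as main name, summed to 18967, 19922 and 84308 CPM for QHMM, against 7300, 13838 and 8550 CPM for STH. In QHMM replicate 3, miR-451-5p made up 82384 CPM of this sum, and miR-144-3p and miR-144-5p were highest there as well (1329 and 563 CPM). miR-486 did not stand apart there, with 30.6 CPM, against 13.1 to 25.4 CPM in the other libraries. The part of these cells in the value of miR-205 was not tested.

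The defining miRNAs of liver and neurons were at low levels in all libraries. The liver list, with miR-122-5p as main name and no count of miR-122a, ran between 0.537 and 2.15 CPM in QHMM and between 1.78 and 3.55 CPM in STH. The neuron list, with miR-9a-5p as main name, 1 to 10 counts of miR-124-3p per library and none of miR-124a or the plain miR-9, ran between 3.05 and 7.02 CPM in QHMM and between 4.51 and 6.56 CPM in STH. The list of lymphocytes and myeloid cells, cells that can also make the miR-183 cluster, ran between 1790 and 1967 CPM in QHMM and between 1189 and 1465 CPM in STH, with miR-150 as main name. All 5 of its entries had counts. Of its 6 tested names 0 passed with edgeR, 2 at an unadjusted p under 0.05 and 1 with DESeq2, with a median log2 fold change of 0.032, against 0.031 over all names. Of all 1274 tested names, 174 were at an unadjusted p under 0.05 with edgeR and 49 passed with DESeq2. The names of this list differed in direction. miR-155-5p, a miRNA of activated lymphocytes picked here after its values were seen, had 24.5, 19.6 and 24.6 CPM for QHMM, against 40.0, 24.0 and 23.5 CPM for STH. It was highest in STH replicate 1, the library with most of the miR-183 cluster, and was the sole one of the 6 tested names with this order. miR-142-3p, which passed with DESeq2, was highest in QHMM replicate 3 (606 CPM) and miR-142-5p in QHMM replicate 2 (242 CPM). miR-150 was highest in QHMM replicate 1 (1160.5 CPM), and miR-223-3p and miR-223-5p in STH replicate 3 (274 and 4.41 CPM). The part of lymphocytes in the values of the cluster was not tested.

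The tissue itself showed the markers of muscle. The muscle fibre list, with miR-1 under the name miR-1b as main name, took between 518575 and 547125 CPM in QHMM and between 450982 and 536819 CPM in STH. Its level in the replicate 1 libraries was 535200 CPM for QHMM, between the other libraries of the breed, against 450982 CPM for STH, the lowest of its breed. miR-208b-3p and miR-499-3p of slow fibres were higher in QHMM, with log2 fold changes of 1.27 and 1.35 (adjusted p = 0.0419 for both from edgeR). They were the 2 of 13 tested names that passed, where 2.2% of all tested names passed with edgeR. Of the 13, 4 were at an unadjusted p under 0.05 with edgeR, where 174 of all 1274 tested names were. With DESeq2 3 of the 13 passed, where 3.85% of all tested names passed.

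Vessel and connective tissue lists had no name past the threshold with edgeR. The endothelium list (main name miR-126a-3p) ran between 12781 and 27421 CPM in QHMM and between 23285 and 25304 CPM in STH. The smooth muscle list (miR-145-5p) ran between 32472 and 44575 CPM in QHMM and between 40233 and 53020 CPM in STH. The fibroblast list (miR-199a-3p) ran between 1982 and 2767 CPM in QHMM and between 1887 and 3617 CPM in STH. These 3 lists also had 0 names at an unadjusted p under 0.05 and 0 with DESeq2, while among 4 tested red blood cell names 0 passed with edgeR, 1 at an unadjusted p under 0.05 and 1 with DESeq2. Of all 1274 tested names, 174 were at an unadjusted p under 0.05 with edgeR and 49 passed with DESeq2.

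The list of ciliated epithelium and gonad (miR-34b, miR-34c and the miR-449 family, all 5 entries with counts, main name miR-34b-5p) had another order of libraries. It summed to 24.1, 24.6 and 32.5 CPM for QHMM, against 111, 133 and 151 CPM for STH, with no overlap and with replicate 1 lowest in each breed. All 4 tested names fell in QHMM, miR-34b-5p by 2.24, miR-34b-3p by 1.60, miR-34c-5p by 2.38 and miR-449a-5p by 6.14 on the log2 scale (adjusted p between 0.000158 and 0.0471 from edgeR). Thus all 4 passed, where 2.2% of all tested names passed with edgeR.

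**Figure D4:**
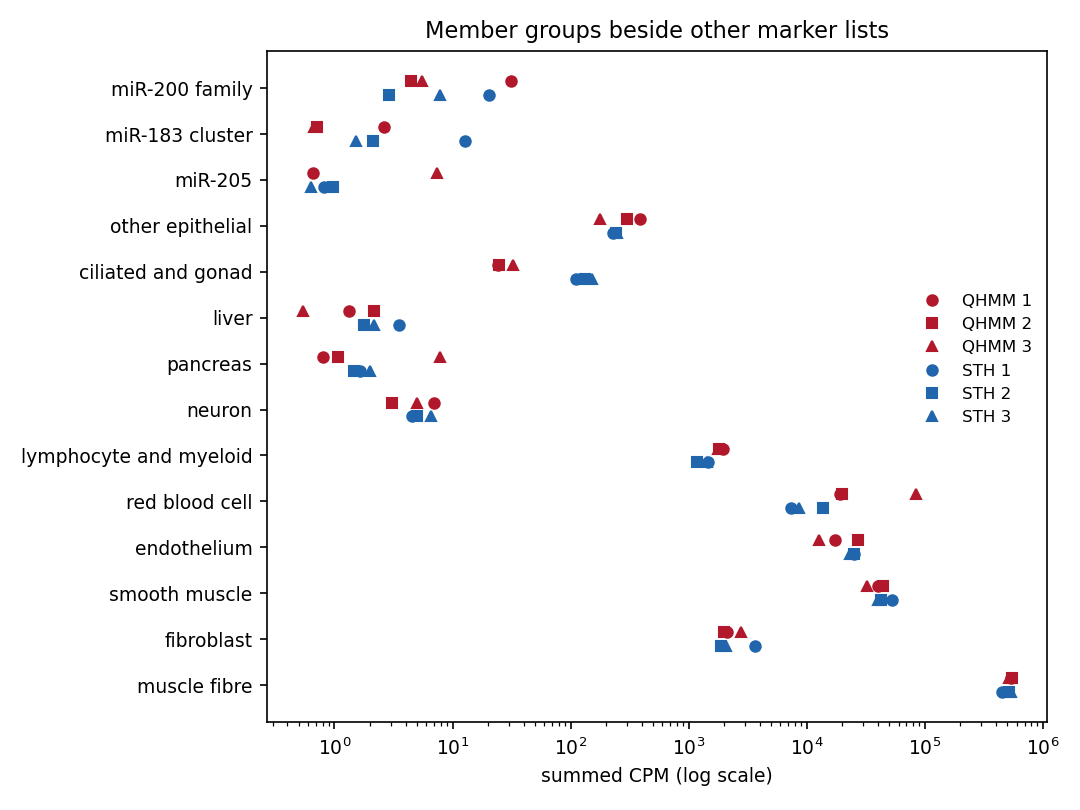
Summed CPM (log scale) of the miR-200 family, the miR-183 cluster, miR-205 and 11 lists of other markers, with QHMM libraries in red above STH libraries in blue and a symbol for each replicate. The miR-200 family (2.92 to 31.4 CPM), the miR-183 cluster and miR-205 (0 in QHMM replicate 2, not drawn) lie below all lists of muscle, vessel and blood cells.

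The 5 known names whose log2 CPM followed the sum of the 21 names most closely over the 6 libraries were miR-483-3p, miR-3613-5p, miR-708-5p, let-7c and miR-432. They were ranked among 486 known names by Pearson's r, which was 0.993, 0.973, 0.963, 0.952 and 0.95 in this order. Without both replicate 1 libraries r was 0.979, 0.883, 0.835, 0.976 and 0.983. With few points, all from the same libraries, these values are a description.

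miR-483-3p, from an intron of IGF2, was counted 96, 21 and 58 times in QHMM, against 86, 29 and 46 times in STH. miR-432, from the imprinted DLK1-DIO3 region, was counted 219, 32 and 106 times in QHMM, against 132, 47 and 96 times in STH. let-7c, with far more reads, had 1473, 919 and 1177 CPM for QHMM, against 1253, 967 and 1039 CPM for STH. Each of the 5 names was highest in the replicate 1 library of each breed. This follows largely from their choice by correlation with a sum that was itself highest there.

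**Figure D5:**
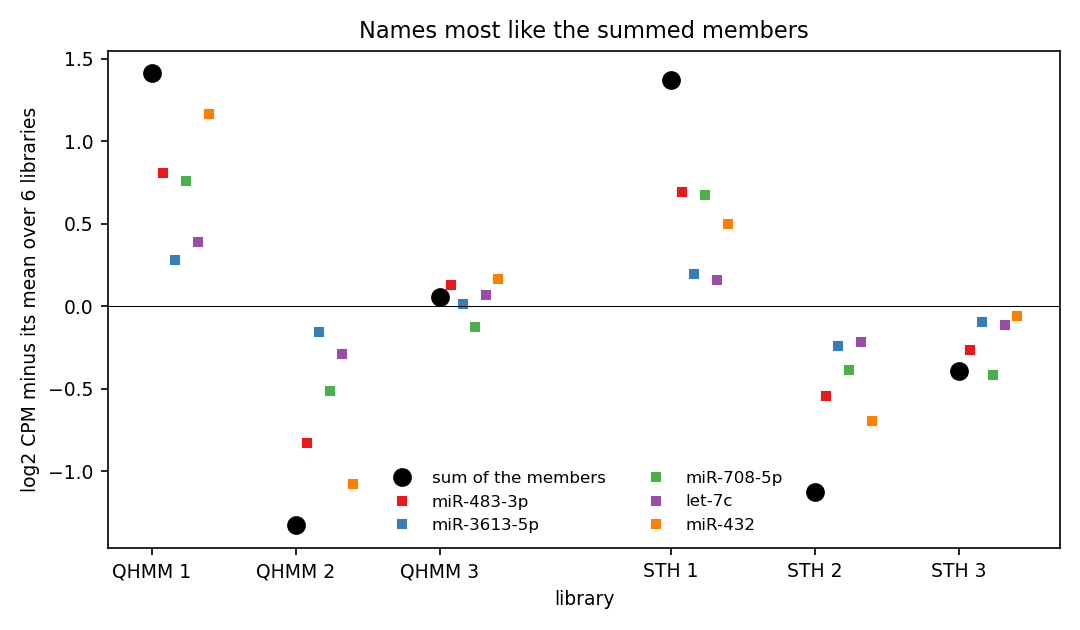
Log2 CPM minus its mean over 6 libraries for the summed members (black, no pseudocount) and the 5 most alike names (coloured squares, log2 of CPM + 0.5). All of them are highest in QHMM replicate 1 and STH replicate 1 within their breed, and the sum of the members has the widest range. The 5 names were chosen by their correlation with this sum.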

How the data were processed

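Small RNA of longissimus muscle was measured in 3 QHMM and 3 STH libraries, made with an Ion Total RNA-Seq kit after size selection on a gel. The values deposited by the authors are raw read counts, whole numbers for each mature sequence and library. As build and tool, Oar_v3.1 and DESeq are named in the notes of the submitters. How reads were aligned, and how a read with several matches was counted, is not given in the sources used here. Each value column was mapped to a sample by its label. The other experiments of the study were not analysed here.

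For each name the row with the highest total stood, or the first such row where totals were equal (miR-200b-5p). CPM were taken over the total of these rows. Over all rows, libraries held 8062231 to 10276427 counts in QHMM and 8681817 to 11282332 in STH. Counts have exact Poisson intervals, and ratios of shares have conditional binomial (Clopper-Pearson) intervals, both at 95%. The test across names was edgeR 4.0.16 under R 4.3.3: quasi-likelihood with robust fit, TMM, filterByExpr, no covariate, and Benjamini-Hochberg adjustment over all names tested with a threshold of 0.05. Standard errors were derived from F. DESeq2 1.42.0 was an alternative, and Python 3.11.15 with scipy 1.17.1 gave intervals and exact permutation tests. The fit with the filter was tested on simulated data, and the fit without a filter was not.

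The members, lists and tests were chosen with earlier results of these data known. Named by rule are all members, the most abundant name and each name past the threshold of every marker list, and the 5 known names past the filter with the highest correlation with the summed members (pseudocount 0.5 CPM). Further names of the marker lists lie outside this rule and were picked after their values were seen. List entries were matched by name with or without an arm, and miR-1b, miR-31a, miR-203b and miR-9a were added after the names were seen. Alternatives were other factors, filters and tools, a replicate block, summed rows, another denominator and left-out libraries. The ratios per name with libraries left out, the fits without both replicate 1 libraries and the repeats of the fit without a filter were added after seeing the data.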

Additional observations from a re-analysis of the deposited data

How the results depend on the processing

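Of 1274 names, 28 differed between the breeds. This count was 64 when low names were kept, 8 when each library had to hold at least 10 counts, 49 with DESeq2, 6 for known names alone and 64 without both replicate 1 libraries, the last chosen after seeing the data. Leaving out each library in turn gave 16 to 35. Other factors and summed rows gave 26 to 28. The cause was not tested, except that fewer names were tested under the stricter filter and among known names. Of the 21 names, 3 were counted in every library. With at least 10 counts in each it was 1, and with each library left out 3 to 6. The fold change of miR-200a ran from -1.14 to 1.06 with each library left out, was -0.22 without both replicate 1 libraries and kept its sign under the other alternatives. The ratio of summed CPM, 1.08, was 1.06 with summed rows, 1.07 over the total of all rows. Leaving out libraries singly moved it between 0.567 and 2.23. The 755 counts were 767 with summed rows. When low names were kept and each library was left out in turn, miR-182 ran from -2.86 to -0.19 and miR-205 from -0.92 to 2.37, and miR-205 passed without QHMM replicate 1 (adjusted p = 0.0273 from edgeR) and without QHMM replicate 2 (0.0156 from edgeR). Of the 11 ratios per name, 4 kept their side of 1 under all 8 alternatives run (miR-141-3p, miR-182, miR-183-5p and miR-96-5p) and 7 did not.

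Libraries with the same number share no stated source. Their deviations from the breed means correlated by 0.0595, 0.241 and 0.125, and every library correlated best with its own number, which is a hint in the values alone. A replicate block gave 26 calls and 0.030 for miR-200a (adjusted p = 0.971 from edgeR). When low names were kept, the block gave 64 calls, and miR-182 was at -2.15, against -2.41 without the block, with an adjusted p of 0.251 from edgeR. Low counts kept all of the 21 names except miR-200a out of the test with the filter. For miR-200a, miR-200b, miR-205 and miR-182 the spread between libraries was also larger than counting error.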
